A study of Mus musculus with 16 samples.

Results

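The products of 8 genes that let white blood cells attach to vessel walls and leave the blood were followed as transcripts in the gastrocnemius, a large muscle of the calf. The set is made up of 4 adhesion molecules of the vessel wall (Vcam1, Icam1, Sele and Selp) and 4 molecules of the white cell that bind them (Selplg, Itga4, Itgb2 and Itgal). The 8 genes were chosen by their function, with earlier results of these data known. Each gene was read from the array probe sets that carry its symbol and no other, and where there were several the brightest on average was used. All 8 were above the filter on dim probe sets, among 13601 genes tested and 22180 genes with such a probe set.

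White cells leave the blood in steps. Selectins on the activated vessel wall (Sele, which encodes E-selectin, and Selp, which encodes P-selectin) catch passing cells by the sugar-bearing ligand PSGL-1, the product of Selplg, so that the cells roll. Integrins on the white cell then hold it firmly. The integrin formed by Itga4 and Itgb1 binds VCAM-1, and the integrin LFA-1, formed by Itgal and Itgb2, binds ICAM-1. On endothelial cells the vessel-side molecules are known to be switched on by inflammatory cytokines through the factor NF-kB. Itgb2 is carried by nearly all white cells, and it is the shared partner of several integrin alpha chains.

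The 16 mice were male, of the FVB/n strain, and 16 weeks old, and in every one of them the genes Foxo1, Foxo3 and Foxo4 were floxed, that is, set between loxP sites where Cre can cut them out. In the 8 FoxO-deleted mice, which the labels call a FoxO1,3,4 knockdown, Mx1-Cre was also present, a recombinase gene driven by an interferon-responsive promoter. The 8 control mice, called wild type in the labels, were littermates that lacked Cre. All were injected 3 times with polyinosine:cytidine (pI:pC), a synthetic double-stranded RNA that induces interferon, at the age of 4 to 5 weeks. From 7 to 8 weeks of age all were fed for 8 weeks on a high-fat diet, which was 58% fat, 16.4% protein and 25.5% carbohydrate. The labels describe the deletion as directed at the endothelium, although the Mx1 promoter is known to respond to interferon in many cell types, white cells among them. The comparison asks whether the adhesion genes of muscle under a high-fat diet differed in mice with the FoxO deletion. Since Cre came only with the deletion, what Cre does by itself and what the loss of FoxO does cannot be told apart.

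Values are log2 expression, 1 array per mouse, so that a difference of 1 is a doubling of signal and a level is comparable between mice but not between genes. Array medians lay between 4.43 and 4.61. The muscle fibre markers averaged 12.76 in FoxO-deleted mice and 12.74 in control mice, and none of the 12 markers tested passed in limma, nor did any have an unadjusted p under 0.05. The targeted transcripts did not pass the threshold in whole muscle: the difference was 0.07 (SE 0.12) for Foxo1, 0.50 (SE 0.14) for Foxo3 and -0.24 (SE 0.10) for Foxo4, with limma adjusted p-values of 0.804, 0.0762 and 0.236. The positions of the probes within each gene were not analysed here, and a probe outside the floxed exons checks nothing about the extent of the deletion. Individual arrays stood apart in 2 ways that bear on the results. The liver transcript Alb ran from 4.60 to 11.68 in FoxO-deleted mice and from 4.23 to 11.17 in control mice, and FoxO-deleted mouse 8 moved the count of changed genes from 249 to 680 when it was left out.

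Of the 8 genes, Vcam1 and Itgb2 were higher in the FoxO-deleted mice, and the other 6 did not pass the test. Vcam1, on the vessel side, was 1.73-fold higher, and Itgb2, on the white cell side, was 1.53-fold higher. A gene passed if its limma p-value, adjusted by Benjamini and Hochberg over all genes tested, was under 0.05. By that rule 1.83% of the 13601 genes tested were called, 1.53% as higher and 0.301% as lower in FoxO-deleted mice. The count was 208 higher of 249, and it was 126 higher of 193 when each array was centred on its median and 155 higher of 214 after a further quantile normalization. At an unadjusted p under 0.05, 3 of the 8 genes passed (Vcam1, Itgb2 and Itgal), against 17.3% of all genes tested.

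Vcam1 (probe set 17409649, chromosome 3) encodes VCAM-1, which holds white cells that carry the Itga4 integrin. In FoxO-deleted mice its lowest, median and highest levels were 6.44, 6.97 and 7.20, against 5.85, 6.02 and 6.41 in control mice. The lowest FoxO-deleted mouse therefore lay just above the highest control, and the groups did not overlap, as was the case for 0.353% of all genes tested. The mean was 6.88 ± 0.32 in FoxO-deleted mice and 6.08 ± 0.20 in control mice (SD, n = 8 each). The difference of 0.79 (SE 0.12, 95% interval 0.53 to 1.05) had a limma adjusted p of 0.00406. The exact two-sided permutation test over the 12870 splits of the mice gave p = 1.55e-04, the smallest value that it can give. By limma p-value Vcam1 ranked 14 among the genes tested, and 53 genes had a larger absolute difference. Within the FoxO-deleted group mice 1, 2, 3 and 6 formed the upper end, between 7.12 and 7.20, and mice 4, 7 and 8 the lower end, between 6.44 and 6.61. Whole muscle was measured, so more cells of a type and more RNA per cell cannot be told apart for Vcam1 or for any other gene here. Leaving out any 1 mouse kept the Vcam1 difference between 0.75 and 0.86, with adjusted p-values of at most 0.0126.

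Icam1 (probe set 17515074, chromosome 9) encodes ICAM-1, the vessel ligand of LFA-1, and it did not move with Vcam1 between the groups. Its lowest, median and highest levels were 5.07, 5.46 and 5.65 in FoxO-deleted mice and 5.24, 5.38 and 5.52 in control mice. The FoxO-deleted mice spread on both sides of the controls, with 3 above every control and 1 below every control. The difference was 0.06 (SE 0.08, 95% interval -0.11 to 0.22; limma adjusted p = 0.752). A rise of the size seen for Vcam1 lies outside that interval.

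Sele (probe set 17218820, chromosome 1) encodes E-selectin, which is made only by endothelial cells. It read 4.22, 4.66 and 5.30 at the lowest, the median and the highest in FoxO-deleted mice, against 4.27, 4.59 and 4.93 in control mice. These levels are at the edge of what the arrays measured, since Sele was above the array median in only 5 of 8 FoxO-deleted mice and 5 of 8 control mice. The groups overlapped, with FoxO-deleted mouse 1 alone above every control. The difference was 0.04 (SE 0.13, 95% interval -0.22 to 0.30; limma adjusted p = 0.902).

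Selp (probe set 17218845, chromosome 1) encodes P-selectin, which endothelial cells and platelets store in granules and release on activation. Its lowest, median and highest levels were 5.22, 5.49 and 5.58 in FoxO-deleted mice, against 4.71, 5.60 and 6.01 in control mice. Here the control mice were the more spread: 4 of them lay above every FoxO-deleted mouse and 1, control mouse 5, lay below every one. The means were 5.47 ± 0.12 in FoxO-deleted mice and 5.51 ± 0.42 in control mice (SD, n = 8 each). The difference was -0.04 (SE 0.14, 95% interval -0.34 to 0.25; limma adjusted p = 0.911).

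**Figure D1:**
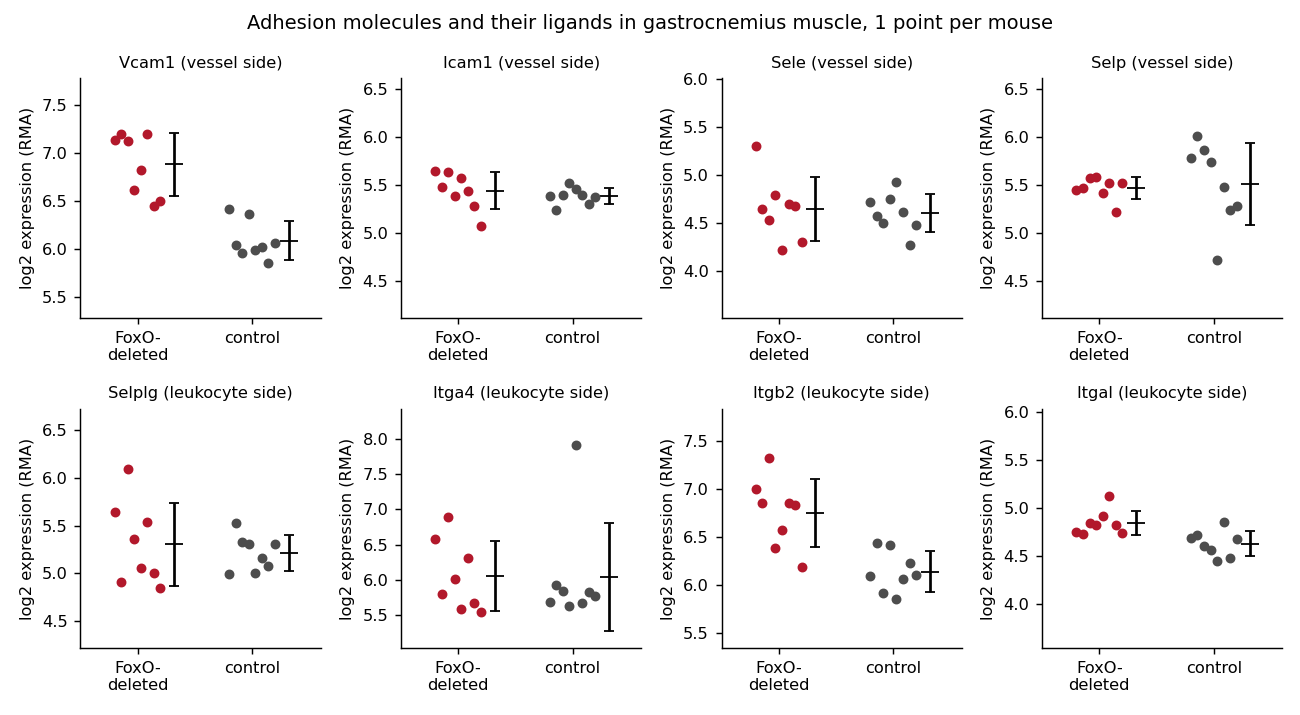
Log2 expression of the 8 genes in each mouse (vertical axis), with FoxO-deleted mice in red on the left and control mice in grey on the right of each panel. Black marks are the mean and SD of 8 mice, and the vertical axis spans the same range in every panel but that of Itga4, which is longer. Vcam1 is the gene whose groups do not overlap, and a single control mouse at 7.91 stands apart for Itga4.

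On the white cell side the largest difference was that of Itgb2 (probe set 17234647, chromosome 10), the beta chain of LFA-1 and of the complement receptor Mac-1. Its lowest, median and highest levels were 6.19, 6.84 and 7.32 in FoxO-deleted mice, against 5.85, 6.10 and 6.43 in control mice. Of the FoxO-deleted mice 6 lay above every control, and the other 2, mice 4 and 8, lay within the control range. The mean was 6.75 ± 0.36 in FoxO-deleted mice and 6.13 ± 0.21 in control mice (SD, n = 8 each). The difference of 0.61 (SE 0.13, 95% interval 0.33 to 0.89) had a limma adjusted p of 0.0253, and the exact two-sided permutation test gave p = 0.00155. The call was close to the threshold. It was lost when control mouse 3, 5 or 6 or FoxO-deleted mouse 1, 2 or 6 was left out, with an adjusted p of at most 0.0574, while the difference stayed between 0.53 and 0.69 in all such fits.

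Itgal (probe set 17483264, chromosome 7) encodes the alpha chain that joins Itgb2 in LFA-1. It read 4.73, 4.83 and 5.13 at the lowest, the median and the highest in FoxO-deleted mice, against 4.45, 4.64 and 4.86 in control mice. The shift was small but regular: 7 control mice lay below every FoxO-deleted mouse, and only control mouse 6 lay among them. The difference of 0.21 (SE 0.07, 95% interval 0.07 to 0.36) did not pass over all genes (limma adjusted p = 0.133), although the exact permutation test of this gene alone gave an unadjusted p of 0.0042. The level was low, above the array median in 8 FoxO-deleted mice and in 6 control mice.

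Itga4 (probe set 17372307, chromosome 2) encodes the alpha chain that binds VCAM-1. Its lowest, median and highest levels were 5.54, 5.91 and 6.89 in FoxO-deleted mice, against 5.63, 5.80 and 7.91 in control mice. The highest value belonged to control mouse 5, whereas the other control mice lay between 5.63 and 5.92. With all mice the difference was 0.01 (SE 0.28, 95% interval -0.58 to 0.61; limma adjusted p = 0.987), and without control mouse 5 it was 0.28. Its interval is the widest of the 8 genes. Itgb1, the partner of Itga4 in the VCAM-1 receptor, differed by 0.05 (SE 0.07), and Itgb7, its other partner, which pairs with it to bind the gut vessel molecule MAdCAM-1, differed by 0.07 (SE 0.10). Neither partner passed, with limma adjusted p-values of 0.730 and 0.736, and both were named after their values had been seen.

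Selplg (probe set 17451437, chromosome 5), the gene of the selectin ligand PSGL-1, had lowest, median and highest levels of 4.84, 5.20 and 6.09 in FoxO-deleted mice, against 5.00, 5.24 and 5.53 in control mice. Mouse 3 of the FoxO-deleted group held the highest value, and 3 FoxO-deleted mice lay above and 2 lay below every control. The difference was 0.09 (SE 0.15, 95% interval -0.22 to 0.41; limma adjusted p = 0.802). A dimmer probe set of the same gene (17440768) differed by -0.07.

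The vessel side and the white cell side each had 1 of 4 genes past the threshold, against 1.83% of all genes tested. The median difference was 0.05 for the vessel side (range -0.04 to 0.79) and 0.15 for the white cell side (range 0.01 to 0.61), while the median over all genes tested was 0.00075. No receptor passed together with its own ligand. Vcam1 rose, and for its receptor chain Itga4 the difference was 0.01, or 0.28 without control mouse 5. With an interval of -0.58 to 0.61, the values do not show that Itga4 was unchanged. For ICAM-1 and LFA-1 it was the receptor chain Itgb2 that rose, and the difference for the vessel ligand Icam1 was 0.06. In the selectin system the differences were 0.04 for Sele, -0.04 for Selp and 0.09 for Selplg.

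**Figure D2:**
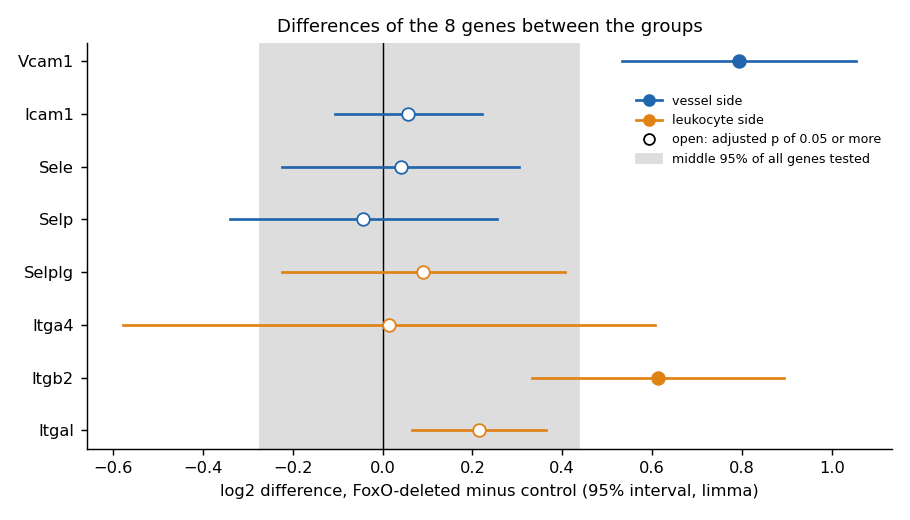
Difference in log2 expression between FoxO-deleted and control mice (horizontal axis) for the 8 genes, with 95% intervals from limma. Filled points passed an adjusted p under 0.05, open points did not, and the grey band from -0.27 to 0.44 holds the middle 95% of the differences of all genes tested. Vcam1 at 0.79 and Itgb2 at 0.61 lie to the right of the band.

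Across the mice, after the group means had been removed, the 8 genes gave 28 pairs, and none passed Benjamini-Hochberg adjustment over them. By Pearson's r, an unadjusted permutation p under 0.05 was found for 5 pairs. Vcam1 and Icam1 had Pearson's r = 0.68 and Spearman's rho = 0.54 over 16 mice (permutation p = 0.0104 and 0.0541; adjusted 0.196 and 0.379). Selplg and Itgb2 had r = 0.68 and rho = 0.59 (permutation p = 0.0140 and 0.0289; adjusted 0.196 and 0.300). Without the 2 mice farthest from the median of the first gene, r was 0.70 for Vcam1 and Icam1 and 0.35 for Selplg and Itgb2. For Selplg and Itgb2 these were FoxO-deleted mice 3 and 8, and the relation was weaker without them (permutation p = 0.258). Vcam1 and Itgb2 had r = 0.58 and rho = 0.58 (permutation p = 0.0387 and 0.0321; adjusted 0.217 and 0.300), and r = 0.78 without the 2 mice. In the other 2 pairs, Sele with Itga4 and Selp with Selplg, r was 0.51 and 0.35 (permutation p = 0.0304 and 0.0362). Their rho was 0.44 and 0.38 (permutation p = 0.113 and 0.0702). The highest rho of the 28 pairs, 0.63, was that of Selplg with Itga4 (permutation p = 0.0248, adjusted 0.300). For that pair r was 0.35 over all mice (permutation p = 0.122), 0.97 in FoxO-deleted mice and -0.40 in control mice, which include control mouse 5.

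The genes whose values followed those of Vcam1 most closely over the 16 mice, again as deviations from the group means, were Atad2, Ostf1, Adgrg6, Cfl1, Rhoa and Clic1, with Pearson's r from 0.81 to 0.82. They are given as a description, chosen as the 6 highest of all genes tested. Adgrg6, an adhesion G protein-coupled receptor, was itself higher in FoxO-deleted mice, by 0.93 (SE 0.13, limma adjusted p = 0.00160). Cfl1, which encodes the actin-severing protein cofilin, rose by 0.66 (SE 0.14), Clic1, a chloride intracellular channel gene, by 0.49 (SE 0.12) and Ostf1 by 0.36 (SE 0.08), with limma adjusted p-values of 0.0215, 0.0415 and 0.0234. The call for Clic1 was lost in 12 of the 16 fits that each left out a mouse, and that for Ostf1 without FoxO-deleted mouse 6. Rhoa, a small GTPase of the actin skeleton, differed by 0.10 and Atad2 by 0.18, and neither passed.

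Other adhesion and passage molecules of the vessel wall were higher in part. Of 21 tested, 5 rose, none fell and 16 did not pass, against 1.83% of all genes tested that were called. At an unadjusted limma p under 0.05 the counts were 9 higher and 0 lower, against 17.3% of all genes in either direction. The median difference of the 21 genes was 0.30. Lyve1, the hyaluronan receptor of lymphatic endothelium and some macrophages, rose by 0.72 (SE 0.11, limma adjusted p = 0.00298). It ran from 8.12 to 8.67 in FoxO-deleted mice and from 7.25 to 7.94 in control mice. The groups did not overlap, as was the case for 0.353% of all genes tested. Cdh5, which encodes the junction protein VE-cadherin, rose by 0.58 (SE 0.10), and Vwf, the carrier of clotting factor and tether of platelets, by 0.70 (SE 0.15). The other 2 that rose were Pecam1, whose product white cells bind as they pass between endothelial cells (0.40), and Esam, a tight junction molecule (0.49). The smallest p on the falling side was that of Madcam1, at -0.19 (limma adjusted p = 0.384). The call for Vwf was lost without FoxO-deleted mouse 2 and without mouse 6. That for Esam was lost in 13 and that for Pecam1 in 5 of the 16 fits that left out a mouse, and Esam also missed the threshold after centring (0.44) and after quantile normalization (0.44).

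Among other integrins and selectin ligands of white cells, 3 of 16 tested rose and none fell, with a median difference of 0.15. At an unadjusted limma p under 0.05 the counts were 6 higher and 0 lower, against 17.3% of all genes. Itgam, the alpha chain that joins Itgb2 in Mac-1 on macrophages and neutrophils, rose by 0.69 (SE 0.17, limma adjusted p = 0.0395), running from 5.94 to 7.01 in FoxO-deleted mice and from 5.48 to 6.38 in control mice. The alpha chains Itgax and Itgad, which also pair with Itgb2, were too dim to be tested. Itga6, a laminin-binding integrin chain that endothelial cells also carry, rose by 0.74 (SE 0.13), and Cd44, the hyaluronan receptor that also binds E-selectin, by 0.39 (SE 0.10). The smallest p on the falling side was that of Spn, the sialoprotein CD43, at -0.21 (limma adjusted p = 0.369). The calls for Itgam and Cd44 were lost in 11 and 13 of the 16 fits that left out a mouse.

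The enzymes that build the sugars of selectin ligands gave 1 riser among 13 tested and no gene that fell, and the median difference was -0.03. The counts were also 1 higher and 0 lower at an unadjusted limma p under 0.05, against 17.3% of all genes. The gene that rose was Chst2, a sulfotransferase of L-selectin ligands, at 0.54 (SE 0.12, limma adjusted p = 0.0237), and its call was lost without FoxO-deleted mouse 6. B4galt1 differed by 0.11, St3gal4 by 0.10 and C1galt1c1, the chaperone of O-glycan synthesis, by -0.10. Fut7, the fucosyltransferase of selectin ligands in white cells, was too dim to be tested.

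In the machinery that activates integrins from inside the cell, 2 of 18 genes rose, none fell, and the median difference was 0.15. The counts at an unadjusted limma p under 0.05 were 8 higher and 0 lower, against 17.3% of all genes. Skap2, an adaptor of integrin activation in myeloid cells, rose by 0.44 (SE 0.09, limma adjusted p = 0.0155), and Lcp2, the adaptor SLP-76, by 0.46 (SE 0.11, adjusted p = 0.0371). Tln1, which encodes talin, the protein that binds integrin tails, differed by 0.33 and did not pass (limma adjusted p = 0.0694). Fermt2, a kindlin, differed by -0.10. The call for Lcp2 was lost in 11 of the 16 fits that left out a mouse.

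Of the 30 cytokine and NF-kB genes tested that act on vessel adhesion molecules, 1 rose and none fell, against 1.83% of all genes tested that were called. At an unadjusted limma p under 0.05 the counts were 8 higher and 2 lower, against 17.3% of all genes in either direction, and the median difference was 0.05. Il1r1, the receptor of interleukin 1, rose by 0.50 (SE 0.11, limma adjusted p = 0.0239), with levels between 6.73 and 7.48 in FoxO-deleted mice and between 6.30 and 6.91 in control mice. This call was lost without FoxO-deleted mouse 2. Nfkbia, the NF-kB inhibitor that NF-kB itself induces, differed by 0.30 (limma adjusted p = 0.0932), and Stat6, the factor downstream of interleukin 4, by 0.26 (adjusted p = 0.0624). Relb differed by -0.12. The cytokines Il1b, Il4 and Il6 were too dim to be tested.

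Of the 9 proteases and protease inhibitors that act on adhesion molecules at the cell surface, 1 rose and none fell, with a median difference of 0.21. The counts at an unadjusted limma p under 0.05 were 3 higher and 0 lower, against 17.3% of all genes. Adam10, a sheddase of several adhesion molecules, rose by 0.47 (SE 0.12), with a limma adjusted p of 0.0472 that missed the threshold in 14 of the 16 fits that left out a mouse. Adam15 differed by 0.38, the inhibitor Timp3 by 0.21 and Adam9 by -0.09, without passing.

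**Figure D3:**
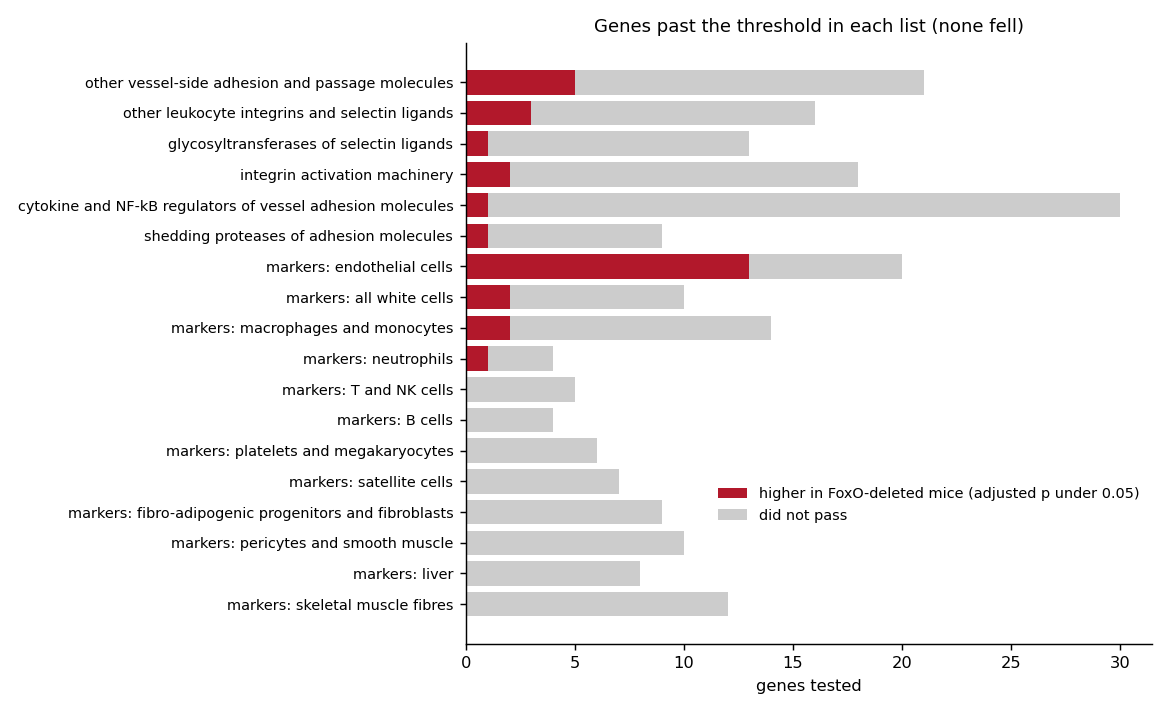
Number of genes tested in each list (horizontal axis), with those higher in FoxO-deleted mice at an adjusted p under 0.05 in red and those that did not pass in grey. Endothelial markers hold the most genes past the threshold, 13 of 20, and on the deposited scale no gene of these lists fell.

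Of the 20 endothelial markers, 13 rose and none fell, with a median difference of 0.48. At an unadjusted limma p under 0.05, 17 of them were higher and 0 lower, against 17.3% of all genes. Their mean level ran from 7.04 to 7.70 in FoxO-deleted mice and from 6.85 to 7.16 in control mice. Erg, a transcription factor of endothelial identity, rose by 0.52 (SE 0.08), and Ptprb, the receptor phosphatase VE-PTP, by 0.73 (SE 0.12). Cdh5, Vwf, Pecam1 and Esam stand in this list as well as among the vessel-side molecules. With the endothelial marker mean as a covariate the Vcam1 difference was 0.58 (SE 0.20, limma adjusted p = 0.416) and that of Itgb2 was 0.55 (SE 0.23, adjusted p = 0.483), and 5 of all genes tested passed in that fit.

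Of the 10 markers shared by all white cells, 2 rose and none fell, with a median difference of 0.27. Counted at an unadjusted limma p under 0.05, 5 of these markers were higher and 0 lower, against 17.3% of all genes. Their mean level ran from 5.27 to 6.39 in FoxO-deleted mice and from 5.06 to 5.71 in control mice. The genes that rose were Ptprc, the common leukocyte antigen CD45, by 0.73 (SE 0.17) and Lcp1, a leukocyte actin-bundling protein, by 0.67 (SE 0.17), and each call was lost in 13 of the 16 fits that left out a mouse. Ptprc and Lcp1 also missed the threshold after centring (limma adjusted p = 0.0549 for each) and after quantile normalization (limma adjusted p = 0.0575 and 0.0583). With the white cell marker mean as a covariate the Itgb2 difference was 0.33 (SE 0.11, limma adjusted p = 0.293) and that of Vcam1 was 0.60 (SE 0.13, adjusted p = 0.0711), with 26 of all genes passing. Among 14 macrophage and monocyte markers 2 rose, Mertk (0.42) and C1qa (0.56), with a median difference of 0.43. Of these 14 markers 9 were higher and 0 lower at an unadjusted limma p under 0.05, against 17.3% of all genes in either direction. Of 10 neutrophil markers 4 passed the filter on dim probe sets, and S100a8 rose by 1.28 (SE 0.27), while Csf3r, at 0.32, did not pass. S100a8 was above the array median in 8 FoxO-deleted mice and in only 2 control mice, so it passed the filter mainly through the FoxO-deleted group and the size of its difference is uncertain. The S100a8 difference was 0.27 with the endothelial marker mean as a covariate (SE 0.36, limma adjusted p = 0.852). With the white cell marker mean as a covariate it was 1.21 (SE 0.33, limma adjusted p = 0.166). The markers Ly6g, S100a9, Camp, Ltf, Mmp8 and Retnlg were under the filter.

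Markers of the other cell types gave no gene past the threshold on the deposited scale. With those of muscle fibres they were 62 genes, of which 6 were higher and 1 was lower at an unadjusted limma p under 0.05. Of these 6, 5 were among the 10 markers of pericytes and smooth muscle, where 9 differences were above 0, against 17.3% of all genes at that p in either direction. The median differences were -0.06 for 5 T and NK cell markers (Nkg7 at -0.19), -0.06 for 4 B cell markers (Cd79b at -0.20) and 0.13 for 6 platelet markers (Pf4 at 0.28). The only red cell marker tested, Slc4a1, differed by 1.55 (SE 0.49, limma adjusted p = 0.113). For 10 markers of pericytes and smooth muscle the median was 0.20 (Pdgfrb at 0.27), for 9 of fibroblasts 0.09 (Col3a1 at 0.72) and for 8 of liver 0.60 (Cyp2e1 at 1.04). Satellite cells, the muscle stem cells, are also known to carry VCAM-1, and the median difference of their 7 markers was -0.14. Chodl differed by -0.31 (limma adjusted p = 0.0694) and Myf5 by -0.17. Chodl passed as lower when the arrays were centred (-0.36, limma adjusted p = 0.0428) or quantile normalized (-0.35, adjusted p = 0.0439).

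Each of the 8 genes was also set against the endothelial and the white cell marker means over the 16 mice, with group means removed, which made 16 relations, a choice made after the values had been seen. Of these, 3 passed Benjamini-Hochberg adjustment, all of them with white cell markers. Selplg had r = 0.86 and rho = 0.80 with the white cell mean (permutation p = 1.60e-04 and 6.90e-04; adjusted 0.00256 and 0.0110), and r = 0.69 without FoxO-deleted mice 3 and 8 (adjusted p = 0.0580). Itgb2 had r = 0.78 and rho = 0.69 (permutation p = 0.00180 and 0.00792, adjusted 0.00987 and 0.0540). Without those 2 mice r was 0.52 (permutation p = 0.0704, adjusted 0.376), so this relation was weaker without them. They lay farthest from the median of the white cell mean, so leaving them out also narrowed its range. Selp had r = 0.56 and rho = 0.60 (permutation p = 0.00185 and 0.0101, adjusted 0.00987 and 0.0540), and r = 0.82 without FoxO-deleted mice 3 and 8. Its SD was 0.42 in control mice and 0.12 in FoxO-deleted mice, so the control mice weigh most in this r. FoxO-deleted mice 3 and 8, with white cell means of 6.39 and 5.27, had nearly the same Selp (5.57 and 5.52). The r within each group was not computed. Vcam1 had r = 0.31 with the endothelial mean (permutation p = 0.337) and r = 0.56 with the white cell mean (permutation p = 0.0444, adjusted 0.178).

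**Figure D4:**
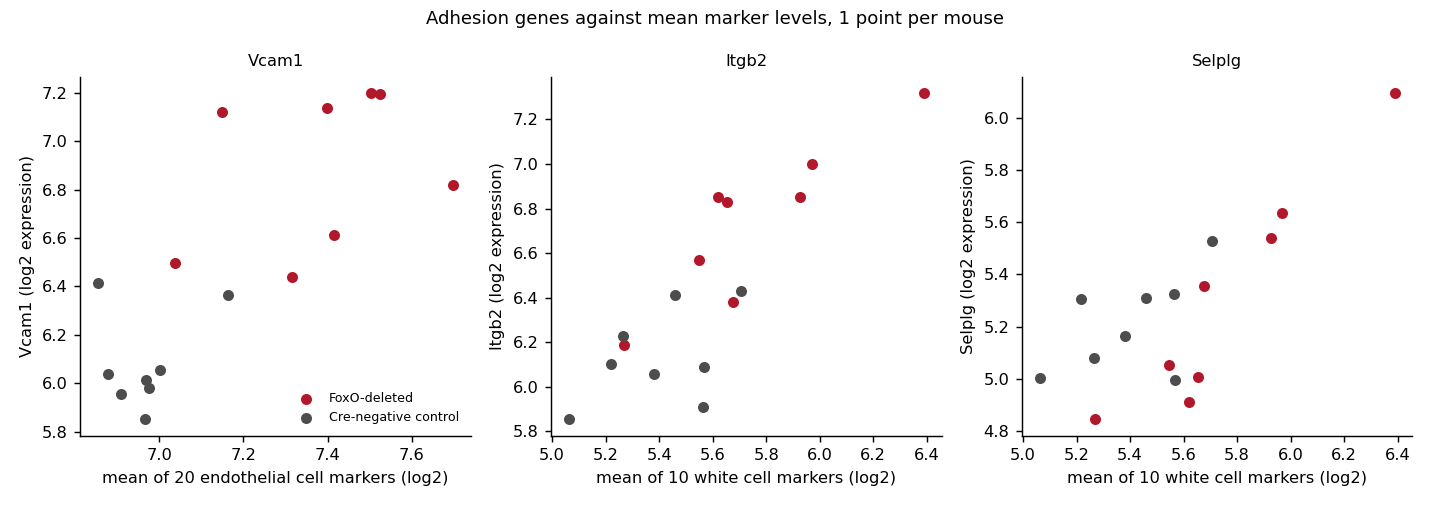
Log2 expression of Vcam1 against the mean of 20 endothelial markers, and of Itgb2 and Selplg against the mean of 10 white cell markers, with 1 point per mouse (red, FoxO-deleted; grey, control). In the last 2 panels FoxO-deleted mouse 3, at a white cell mean of 6.39, holds the upper right corner.

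The liver signal in some samples was set beside the results by leaving out the 6 mice with the highest Alb, which kept 4 FoxO-deleted and 6 control mice. The Vcam1 difference was then 0.68 (SE 0.16), all 4 FoxO-deleted mice lay above every control, and the exact permutation p was 0.00476, the smallest that this number of mice can give. The Itgb2 difference was 0.73 (SE 0.18), with 3 of 4 FoxO-deleted mice above every control (exact permutation p = 0.00952). Over all genes neither passed at this size (limma adjusted p = 0.209 and 0.210), where 7 genes did. With the liver marker mean as a covariate Vcam1 stayed past the threshold at 0.80 (limma adjusted p = 0.00831), and Itgb2, at 0.60, did not (adjusted p = 0.0540).

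**Figure D5:**
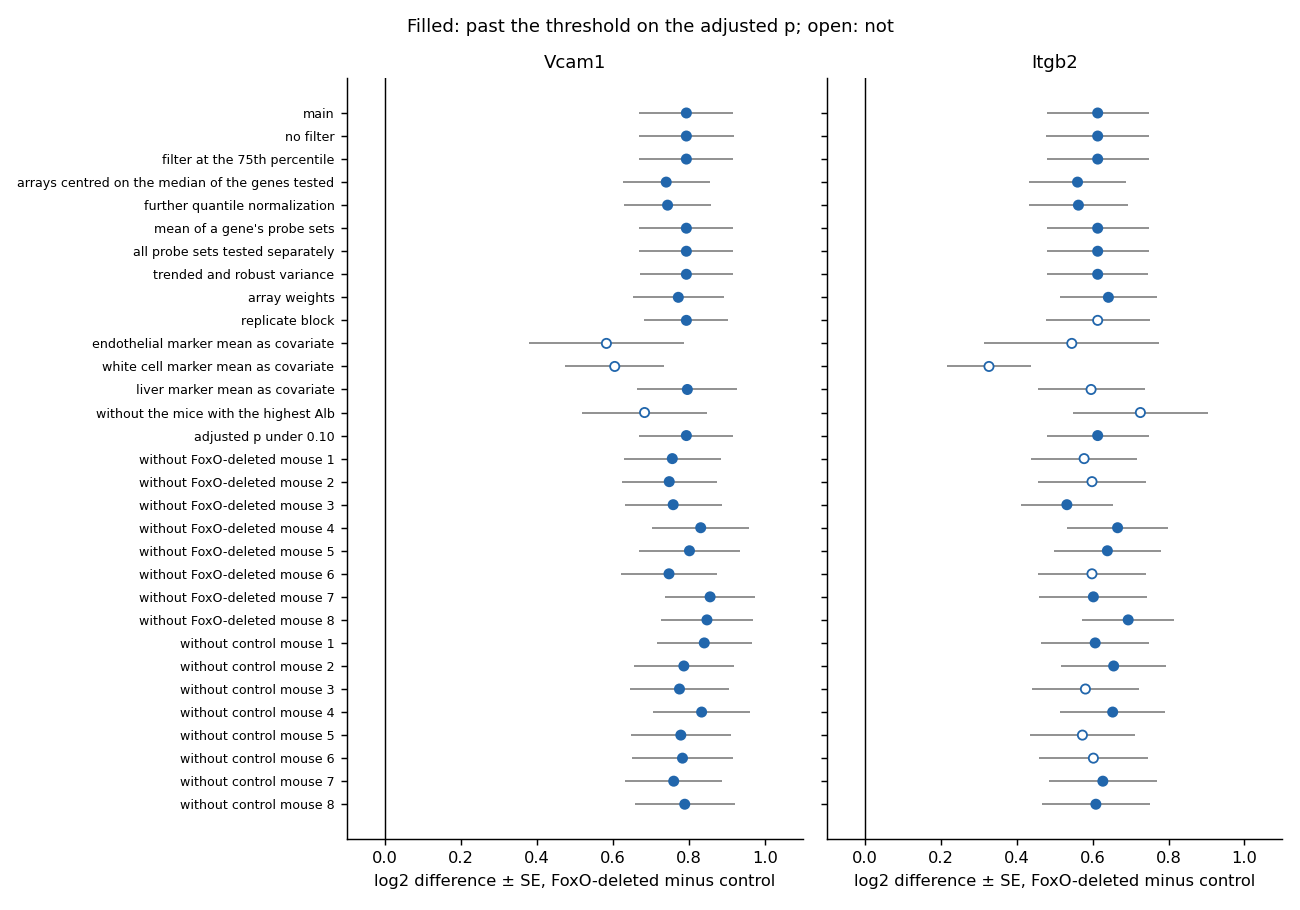
Difference of Vcam1 and of Itgb2 between FoxO-deleted and control mice (horizontal axis, log2, with SE) under each setting down the page, filled where the adjusted p passed the threshold. All differences lie above 0: those of Vcam1 run from 0.58 to 0.86 and those of Itgb2 from 0.33 to 0.73.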

How the data were processed

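RNA of whole gastrocnemius muscle was hybridised to 1 Affymetrix array per mouse, from 250 ng of total RNA per the labels' protocols. Per the submitters' processing notes, the authors used RMA, as implemented in oligo, to make the deposited log2 values. The base of the log was taken from their range. Not given in the sources used here are tool versions, the array design, the genome build and scan dates. The number of mice limits the precision. RMA sets arrays to a common distribution, so a shift of all transcripts would not be seen.

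Of 41345 probe sets, 23521 carried 1 gene symbol. A probe set was kept if above its array's median in at least 8 of 16 mice, and the brightest per gene was used. Groups follow the labels, which call each mouse a biological replicate. The test was limma 3.58.1 (lmFit, eBayes; R 4.3.3), two-sided, with Benjamini-Hochberg adjustment over 13601 genes. Single genes were tested by exact permutation, and correlations by 100000 permutations within groups. The fit was tested on simulated data. Chromosomes come from RefSeq.

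The 8 genes and all lists were chosen with earlier results of these data known. Named from each pathway list were up to 3 genes with the smallest p in each direction, from each marker list up to 2, and the 6 genes most like Vcam1. Pecam1, Esam, Itgb1, Itgb7, Alb and the genes given as too dim were chosen after their values were seen. Alternatives were other filters, centring, quantile normalization, probe set summaries, variance models, array weights, a replicate block, marker means as covariates, leaving out mice with high Alb, another threshold and leaving out each mouse. The correlations with marker means, and their alternatives, were added after seeing the data.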

Additional observations from a re-analysis of the deposited data

Results flagged for a closer look

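Each of the 8 genes was searched for a mouse far from the rest of its group by Dixon's criterion, in which the gap to the nearest mouse is divided by the range of the group. Of 16 groups of 8 mice, 2 held such a mouse (critical value 0.526), and chance alone flags about 1 in 20 groups. Selp read 5.22 in FoxO-deleted mouse 7, below the other FoxO-deleted mice, which lay between 5.42 and 5.58. Itga4 read 7.91 in control mouse 5, above the other control mice at 5.63 to 5.92. The same control mouse had the lowest Selp, at 4.71, and the lowest white cell marker mean, at 5.06.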

How the results depend on the processing

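The count of changed genes, 249, was 137 without a filter, 5 with the endothelial covariate, 26 with the white cell covariate, 106 with the liver covariate, 7 without the mice of highest Alb, 505 at an adjusted p under 0.10, and from 107 to 680 when 1 mouse was left out. Of the 8 genes 2 passed, against 0 with the endothelial covariate, the white cell covariate or without the mice of highest Alb, 1 with the liver covariate, and 1 to 2 when 1 mouse was left out. Vcam1 ran from 0.75 to 0.86 and Itgb2 from 0.53 to 0.69 in the fits without 1 mouse. Vcam1 missed the threshold at 0.58 with the endothelial covariate, 0.60 with the white cell covariate and 0.68 without the mice of highest Alb. Itgb2 missed it in the same settings at 0.55, 0.33 and 0.73, and with the liver covariate at 0.60. These fits have fewer residual degrees of freedom or fewer mice. The SE of Vcam1 was 0.12 in the main fit, 0.20 with the endothelial, 0.13 with the white cell and 0.13 with the liver covariate. The endothelial mean was itself higher in FoxO-deleted mice (7.38 against 6.96, with 6 mice above every control). So was the white cell mean (5.76 against 5.40, with 3 mice). These covariates therefore cannot be fully told apart from the group, and the cause of each lost call was not tested. Mice of the 2 groups that share a replicate number correlated between -0.08 and 0.25, over 0.1 in 4 of 8 pairs. Of the mice, 1 FoxO-deleted and 3 control mice correlated best with their own number. A pairing by number was neither shown nor excluded by these values. With that number as a block (replicate block) 213 genes passed, Vcam1 kept its call at 0.79 and Itgb2, at 0.61, did not (limma adjusted p = 0.0516), leaving 1 of the 8 genes. Il1r1, Lcp2, Cd44, Adam10 and Pecam1 also lost their calls under the replicate block and Slc4a1 gained one. Lcp2, Ptprc, Lcp1, Adam10 and Esam lost theirs both after centring and after quantile normalization. Cd44 and Clic1 lost theirs after centring, and Itgam after quantile normalization. Csf3r gained a call after quantile normalization (0.34, limma adjusted p = 0.0495). The vessel side median minus the white cell side median, -0.10, was 0.18 with a filter at the 75th percentile, which left only Vcam1 and Itgb2. It was -0.26 without the mice of highest Alb and ran from -0.16 (without control mouse 5) to -0.053 (without FoxO-deleted mouse 3) when 1 mouse was left out.

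Some differences changed sign. The gene among them that had passed was Esam, at -0.090 with the endothelial covariate, a mean that contains it. With arrays centred, Sele was -0.012, Itga4 -0.039 and Itgb1 -0.000106. Itga4 was -0.031 after quantile normalization, and Rhoa -0.00015 with the mean of its probe sets. With the endothelial covariate Icam1 was -0.14, Sele -0.016, Selp 0.065, Adam15 -0.064, Timp3 -0.026, Itgb1 -0.0063 and Foxo1 -0.085. With the white cell covariate Icam1 was -0.034, Sele -0.046, Selplg -0.27, Itga4 -0.12, St3gal4 -0.000042, Col3a1 -0.18, Pf4 -0.17 and Atad2 -0.020. Without the mice of highest Alb, Icam1 was -0.063, Sele -0.11 and Foxo1 -0.12. Leaving out 1 mouse moved Sele between -0.052 and 0.10, Selp between -0.16 and 0.028, Selplg between -0.022 and 0.16, Itga4 between -0.11 and 0.28, and Foxo1 between -0.052 and 0.12. Sele and Itgal lay near the array median, which limits what their values can show.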
